A study of Mus musculus with 335 samples.

Results

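The 5 genes described here belong to the insulin-like growth factor (IGF) system: the ligands Igf1 and Igf2, the receptors Igf1r and Igf2r, and the binding protein gene Igfbp3. They were chosen by name, and each has an entry in the deposited count table, so they are 5 of the 13448 entries that carry a gene symbol. Messenger RNA was measured by Smart-seq2, a full-length method, in single cells sorted from E11.5 embryos of wild-type mice; the tissue was the aorta-gonads-mesonephros (AGM). The AGM surrounds the embryonic aorta and is a place where haematopoietic stem cells (HSCs) first arise. The cells form 4 groups by their sort. HSC holds 65 EPCR+CD45+ cells, a gate that takes in the HSCs together with other progenitors. Dorsal holds 93 Ngfr+Pdgfrb- cells taken dorsally of the aorta, and Ventral holds 89 cells of the same Ngfr+Pdgfrb- gate taken ventrally. Mesenchymal holds 88 Pdgfrb+Ngfr- cells, also from the ventral side, a gate that takes in subaortic mesenchyme. All groups share genotype, stage and tissue, and no animal or litter is named. Each group was sequenced as 1 pool and counts as 1 sample, so no test was made, and a difference between groups cannot be told apart from a difference between their pools.

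IGF1 and IGF2 are secreted growth factors that act through IGF1R, a receptor tyrosine kinase that signals to PI3K and AKT. IGF2R, the cation-independent mannose 6-phosphate receptor, binds IGF2 at the cell surface and carries it to lysosomes, and so clears it. IGF-binding proteins such as IGFBP3 hold the ligands in the extracellular space. In the mouse, Igf2 is imprinted and read from the paternal allele, Igf2r is imprinted and read from the maternal allele, and Igf2 is a main growth factor of the embryo.

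Levels are given as counts per 1000000 summed counts of a group (CPM), with exact Poisson 95% limits, which cover counting error only. Group totals ran from 68560755 counts in Mesenchymal to 110598792 in Ventral, and single cells from 126979 to 20481041. Cells are named by their group and a running number. The deepest cell, Ventral 41, held 18.5% of the Ventral counts, and the deepest cells of the other groups held 3.56% to 9.04% of theirs. The sort genes were highest where the labels put them: Procr (EPCR) and Ptprc (CD45) stood at 163 and 279 CPM in HSC, Ngfr had 281 CPM in Dorsal against 90.9 CPM in Ventral, and Pdgfrb had 127 CPM in Mesenchymal. Ngfr had at least 5 counts in 81 of 93 Dorsal cells and 47 of 89 Ventral cells. The 9 macrophage markers with an entry (of 10 listed) summed to 156 CPM in HSC and 1267 CPM in Dorsal. Their sum was 905 CPM in Ventral and 2.78 CPM in Mesenchymal. In HSC the sum came mainly from Tyrobp (73.5 CPM), Fcer1g (50.7 CPM), Cd68 (18.8 CPM) and Csf1r (12.4 CPM). C1qc was at 0 in HSC, and C1qa, C1qb, Adgre1 and Mrc1 had 0.0668, 0.0118, 0.221 and 0.475 CPM there. In Mesenchymal, Tyrobp, C1qa, C1qb, Adgre1 and Mrc1 were at 0. All 96 index pairs were used in more than 1 pool, and 55 in all 4, so a read assigned to the wrong pool could land in an occupied well. No cell repeated another: the largest correlation between 2 cells was 0.784.

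On mouse build GRCm38, Igf1 lies on the plus strand at chr10:87858265-87937042 and Igf2 on the minus strand at chr7:142650766-142666816. Igf1r lies on the plus strand of the same chromosome, at chr7:67952827-68233668. Igf2r lies on the minus strand at chr17:12682406-12769664 and Igfbp3 on the minus strand at chr11:7206086-7213923. Of genes that overlap these in the annotation, Igf1os, Igf2os, Mir483, Gm49394 and the Igf2r antisense transcript Airn have no entry of their own in the table. Whether reads of an overlapping transcript were counted to Igf1, Igf2 or Igf2r was not tested.

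The ligand Igf2 was high in HSC and Mesenchymal and lower in both Ngfr+ groups. Its level was 949 CPM in HSC (942 to 955), 54.5 CPM in Dorsal (53.1 to 55.9), 146 CPM in Ventral (144 to 148) and 1098 CPM in Mesenchymal (1090 to 1106). At least 5 counts of it were found in 65 of 65 HSC cells, 77 of 93 Dorsal cells, 70 of 89 Ventral cells and 88 of 88 Mesenchymal cells. The lowest, median and highest HSC cells had 5.25, 754 and 2980 CPM, and the Mesenchymal cells 184, 846 and 2446 CPM. The Dorsal cells ran from 0 through a median of 39.4 to 380 CPM, and the Ventral cells from 0 through a median of 64 to 1259 CPM. At least 100 CPM was reached by 63 of 65 HSC cells, 14 of 93 Dorsal cells, 33 of 89 Ventral cells and 88 of 88 Mesenchymal cells. The HSC and Mesenchymal ranges overlapped along nearly their whole length, and which of the groups stood highest depended on the weight of the cells: averaging cells equally put HSC at 935 CPM and Mesenchymal at 892 CPM. Dorsal lay below Ventral in that average as well, with 54.2 CPM in Dorsal against 153 CPM in Ventral.

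Among the HSC cells, HSC 37 and HSC 39 stood below the rest in Igf2, with 5.25 CPM in HSC 37 and 72.6 CPM in HSC 39; the next cell, HSC 36, had 261 CPM. HSC 37 was also the HSC cell with the highest sum of macrophage markers, 3195 CPM against a group median of 81.3 CPM. Across the 65 HSC cells, log Igf2 had a Pearson correlation of 0.48 with the summed endothelial markers and -0.32 with the macrophage markers. Without HSC 37 these values were 0.31 and -0.08, so the negative value rested on that cell. These cells share a library pool, and the correlations describe them only.

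The ligand Igf1 was patchy. Its level was 97.4 CPM in HSC (95.3 to 99.6), 46 CPM in Dorsal (44.7 to 47.3), 60.6 CPM in Ventral (59.1 to 62) and 332 CPM in Mesenchymal (328 to 336). The median cell had 0.605 CPM in HSC, 0 CPM in Dorsal, 0.830 CPM in Ventral and 6.36 CPM in Mesenchymal. The highest cell had 856 CPM for HSC, 744 CPM for Dorsal, 1330 CPM for Ventral and 2697 CPM for Mesenchymal. The median cell was thus under 1 CPM outside Mesenchymal. At least 5 counts were found in a minority of cells in each group: 23 of 65 HSC cells, 26 of 93 Dorsal cells, 32 of 89 Ventral cells and 41 of 88 Mesenchymal cells. A value above 0 was found in 41 of 65 HSC cells, 41 of 93 Dorsal cells, 50 of 89 Ventral cells and 62 of 88 Mesenchymal cells. At least 100 CPM was reached by 7 of 65 HSC cells, 10 of 93 Dorsal cells, 16 of 89 Ventral cells and 22 of 88 Mesenchymal cells. In HSC a single cell decided the level: HSC 23, the deepest of the group, held 75.6% of its Igf1 counts, and without it the HSC level was 26.1 CPM. HSC 23 had 1.37 CPM of summed macrophage markers and 1632 CPM of HSC and progenitor markers, against group medians of 81.3 and 2090 CPM. Mesenchymal 84 held 40.9% of the Mesenchymal Igf1 counts, and the level without it was 207 CPM, still the highest of the groups. That cell had 0 CPM of macrophage markers and 3802 CPM of smooth muscle and pericyte markers, against a group median of 425 CPM for the smooth muscle and pericyte markers. The places of HSC, Dorsal and Ventral below Mesenchymal were not stable: with cells weighted equally the levels were 39.4 CPM in HSC, 41.3 CPM in Dorsal, 94.9 CPM in Ventral and 183 CPM in Mesenchymal.

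**Figure D1:**
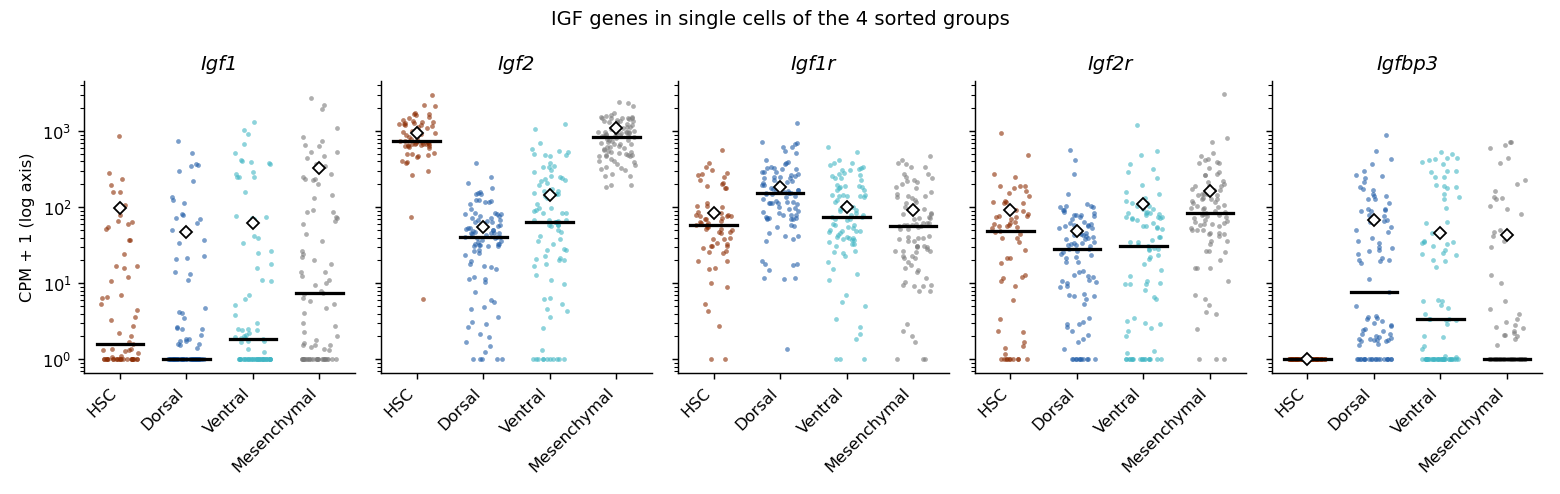
Level of each of the 5 IGF genes in every cell, as CPM + 1 on a log axis, by sorted group (65 HSC, 93 Dorsal, 89 Ventral and 88 Mesenchymal cells). Each dot is a cell, the bar is the median cell and the diamond is the level of the summed counts; Igf2 fills the upper range in HSC and Mesenchymal, Igf1 is spread from 0 to over 100 CPM in each group, and Igfbp3 is at 0 in all 65 HSC cells.

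In the Ngfr+ groups, much of the Igf1 RNA sat in cells with macrophage markers. Clustering of the Dorsal and Ventral cells, done without the IGF genes, set 17 cells apart (7 Dorsal and 10 Ventral) in which all 9 macrophage markers were detected and that were led by Mrc1, C1qb, C1qc, C3ar1 and Tyrobp, and they are called macrophage-like here. They held 62.4% of the Dorsal Igf1 counts with 8.06% of all Dorsal counts, and 40.9% of the Ventral Igf1 counts with 7.32% of all Ventral counts. Among them, Dorsal 36 alone held 24.9% of the Dorsal Igf1 counts and Ventral 21 alone held 22% of the Ventral Igf1 counts. In Dorsal, Igf1 stood at 356 CPM in the 7 macrophage-like cells and 18.8 CPM in the 86 others. In Ventral it stood at 338 CPM in the 10 macrophage-like cells and 38.7 CPM in the 79 others. Igf1 had at least 5 counts in 16 of the 17 macrophage-like cells, against 19 of 86 other Dorsal cells and 23 of 79 other Ventral cells. Igf1 was therefore read outside the macrophage-like cells too. At least 100 CPM was reached by 5 Dorsal and 9 Ventral cells among those others, and by 5 Dorsal and 7 Ventral macrophage-like cells. The highest Dorsal cell, Dorsal 1, was macrophage-like, and the highest Ventral cell, Ventral 57, was not. The Pearson correlation of log Igf1 with the summed macrophage markers was 0.57 over 93 Dorsal cells and 0.48 over 89 Ventral cells. With the megakaryocyte list it was 0.64 over Dorsal cells and 0.43 over Ventral cells; that list holds Pf4, a gene also known from macrophages. In HSC, r of log Igf1 with the summed macrophage markers was 0.01 over 65 cells. That sum was mostly Tyrobp, Fcer1g, Cd68 and Csf1r, as C1qa, C1qb, C1qc, Adgre1 and Mrc1 were at or near 0 in HSC. The macrophage markers were at or near 0 in Mesenchymal, where Igf1 was highest.

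**Figure D2:**
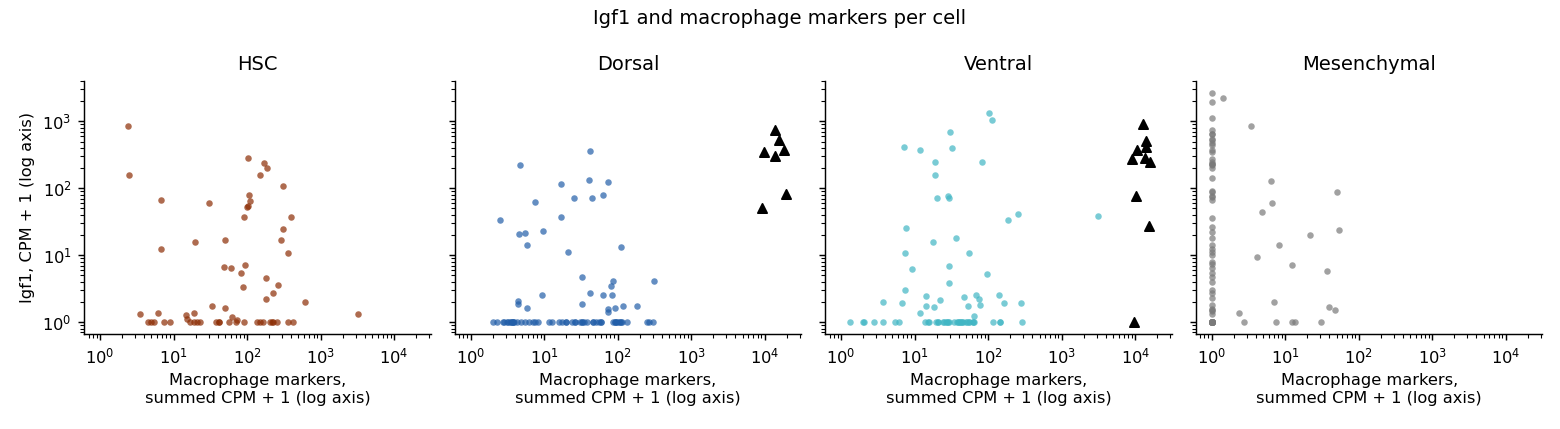
Igf1 (vertical axis, CPM + 1, log axis) against the summed CPM of the macrophage markers + 1 (horizontal axis, log axis) in each cell, with a panel for each sorted group. Black triangles are the 17 macrophage-like cells of the Ngfr+ groups, 16 of which had Igf1, and Mesenchymal cells with high Igf1 lie at or near 0 on the marker axis.

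The receptor gene Igf1r was read in most cells of each group. Its level was 82.4 CPM in HSC (80.5 to 84.4), 182 CPM in Dorsal (179 to 184), 98.5 CPM in Ventral (96.7 to 100.4) and 90.8 CPM in Mesenchymal (88.5 to 93.1). Dorsal was the highest group in the summed counts and with cells weighted equally, where the levels were 96.2 CPM in HSC, 199 CPM in Dorsal, 124 CPM in Ventral and 91.6 CPM in Mesenchymal. The median cell had 58.3 CPM in HSC, 151 CPM in Dorsal, 72.5 CPM in Ventral and 54.9 CPM in Mesenchymal. The highest cell had 559 CPM for HSC, 1301 CPM for Dorsal, 614 CPM for Ventral and 468 CPM for Mesenchymal. At least 5 counts were found in 60 of 65 HSC cells, 92 of 93 Dorsal cells, 79 of 89 Ventral cells and 70 of 88 Mesenchymal cells. Dorsal thus stood apart from the other groups in its median cell, while the ranges of all 4 groups overlapped. HSC and Mesenchymal, the lowest neighbours, changed places with the weight of the cells.

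The clearance receptor gene Igf2r had its highest level in Mesenchymal. The levels were 89.8 CPM in HSC (87.8 to 91.9), 47.6 CPM in Dorsal (46.3 to 48.9), 110 CPM in Ventral (108 to 112) and 161 CPM in Mesenchymal (158 to 164). The Ventral value rested on Ventral 41, which held 53.2% of the counts, and was 63.4 CPM without it. In HSC, HSC 25 held 32.4% of the counts, and the level without it was 62.7 CPM. The median cell had 48.1 CPM in HSC, 27.3 CPM in Dorsal, 30.1 CPM in Ventral and 84.2 CPM in Mesenchymal. The highest cell had 939 CPM for HSC, 559 CPM for Dorsal, 1200 CPM for Ventral and 3062 CPM for Mesenchymal. At least 5 counts were found in 46 of 65 HSC cells, 71 of 93 Dorsal cells, 57 of 89 Ventral cells and 78 of 88 Mesenchymal cells. Mesenchymal was thus highest and Dorsal lowest by median as well, and Ventral lay close to Dorsal in its median cell. Within groups, log Igf2r had a weak Pearson correlation with log Igf2, the ligand it clears: r was 0.32 over HSC cells, 0.27 over Dorsal cells, 0.27 over Ventral cells and 0.06 over Mesenchymal cells. In the Ngfr+ groups log Igf2r had r of 0.46 over Dorsal cells and 0.55 over Ventral cells with the summed mesenchymal markers, and r of 0.52 over Dorsal cells and 0.14 over Ventral cells with the neural crest and glial markers.

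The binding protein gene Igfbp3 was not detected in HSC. No HSC cell had any count, and 0 of 82516453 counts allows a level of up to 0.0364 CPM by the rule of 3 counts. Its level was 67.2 CPM in Dorsal (65.7 to 68.8), 45.6 CPM in Ventral (44.3 to 46.8) and 41.9 CPM in Mesenchymal (40.4 to 43.5). The median cell had 6.71 CPM in Dorsal, 2.41 CPM in Ventral and 0 in Mesenchymal. The highest cell had 899 CPM for Dorsal, 537 CPM for Ventral and 722 CPM for Mesenchymal. At least 5 counts were found in a minority of cells here too, in 46 of 93 Dorsal cells, 38 of 89 Ventral cells and 20 of 88 Mesenchymal cells. A value above 0 was found in 73 of 93 Dorsal cells, 55 of 89 Ventral cells and 37 of 88 Mesenchymal cells. With cells weighted equally, Ventral was the highest group, at 67.4 CPM for Dorsal, 75.8 CPM for Ventral and 57.2 CPM for Mesenchymal, so the order of these groups is not fixed. In the Ngfr+ groups log Igfbp3 had r of 0.37 over Dorsal cells and 0.63 over Ventral cells with the neural crest and glial markers, and r of 0.36 over Dorsal cells and 0.20 over Ventral cells with the mesenchymal markers.

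To compare shares of positive cells at 1 depth, cells were reduced at random to 310000 counts each (thinning), and at least 5 counts made a cell positive; 64 HSC, 92 Dorsal, 80 Ventral and 69 Mesenchymal cells were deep enough. Igf2 was positive in 98.4% of HSC cells, 71.7% of Dorsal cells, 75% of Ventral cells and 100% of Mesenchymal cells. Igf1 was positive in 28.1% (17.6 to 40.8, exact Clopper-Pearson limits) of HSC cells, 21.7% (13.8 to 31.6) of Dorsal cells, 28.8% (19.2 to 39.95) of Ventral cells and 43.5% (31.6 to 56) of Mesenchymal cells. The lowest Igf1 share was thus in Dorsal and the highest in Mesenchymal; these limits cover the counting of cells within a pool and test no difference between groups. Igf1r was positive in 82.8% of HSC cells, 93.5% of Dorsal cells, 87.5% of Ventral cells and 82.6% of Mesenchymal cells. Igf2r was positive in 64.1% of HSC cells, 60.9% of Dorsal cells, 48 of 80 Ventral cells and 88.4% (78.4 to 94.9) of Mesenchymal cells. Both receptor genes were thus positive in most cells of each group. Igfbp3 was positive in 0 of 64 HSC cells, for which the exact upper limit is 5.60%, and in 46.7% of Dorsal cells, 41.2% of Ventral cells and 26.1% of Mesenchymal cells.

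**Figure D3:**
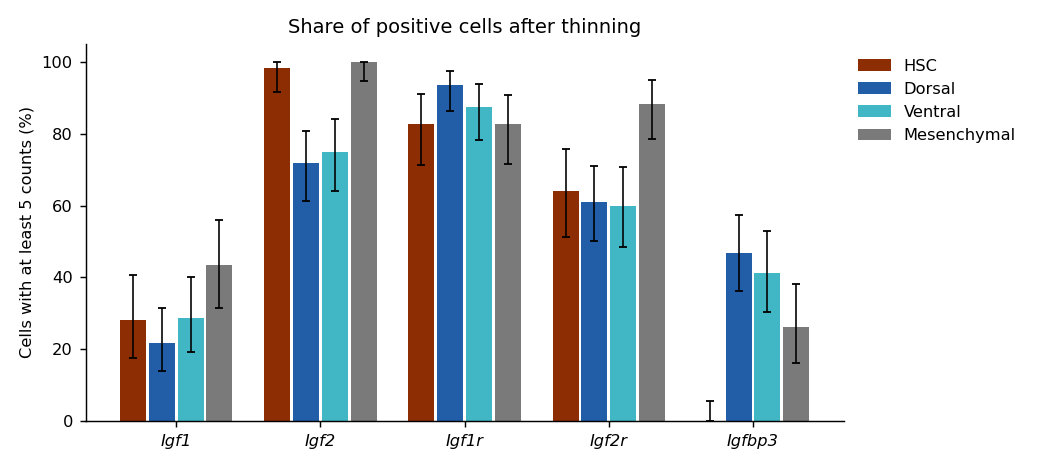
Share of cells with at least 5 counts of each IGF gene after thinning to 310000 counts (vertical axis, %), with exact Clopper-Pearson 95% limits, in 64 HSC, 92 Dorsal, 80 Ventral and 69 Mesenchymal cells. Igf2 and Igf1r were positive in over 70% of the cells of each group, Igf1 in 21.7% to 43.5%, and Igfbp3 has no bar in HSC because no cell was positive.

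RNA of Igf2 and of its receptors was often read in the same cell, and that of Igf1 and Igf1r less often. Igf1 and Igf1r were both positive in 14 of 64 HSC cells, 18 of 92 Dorsal cells, 17 of 80 Ventral cells and 24 of 69 Mesenchymal cells. Genes that are each positive in most cells will often meet in a cell, and whether any pair met more often than its separate shares give was not tested. Igf2 and Igf1r were both positive in 52 of 64 HSC cells, 62 of 92 Dorsal cells, 54 of 80 Ventral cells and 57 of 69 Mesenchymal cells. Igf2 and its clearance receptor Igf2r were both positive in 41 of 64 HSC cells, 47 of 92 Dorsal cells, 38 of 80 Ventral cells and 61 of 69 Mesenchymal cells. The median cell was positive for 3 of the 5 genes in every group. RNA in a cell does not show where the secreted ligands and binding protein act.

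Levels of different genes were set side by side per kilobase of annotated exons. In HSC, Igf2 had 166 CPM per kb, Igf1 9.84, Igf2r 9.65, Igf1r 4.91 and Igfbp3 0. In Dorsal, Igfbp3 had 21.5 CPM per kb, Igf1r 10.8, Igf2 9.53, Igf2r 5.11 and Igf1 4.64. The leading gene thus differed between HSC and Dorsal. In Ventral, Igf2 had 25.5 CPM per kb, Igfbp3 14.6, Igf2r 11.9, Igf1 6.12 and Igf1r 5.87. In Mesenchymal, Igf2 had 192 CPM per kb, Igf1 33.5, Igf2r 17.3, Igfbp3 13.4 and Igf1r 5.41. Igf2 was thus the leading gene per kb in HSC, Ventral and Mesenchymal, and Igfbp3 the leading gene in Dorsal. Without HSC 23, Igf1 in HSC fell to 2.63 CPM per kb and to the fourth place. With the longest transcript as the length, the leading genes were the same, and the lowest pair changed places in Dorsal and in Ventral.

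Dorsal against Ventral asks how the Ngfr+ cells of the opposite sides of the aorta differ. A log2 fold is that of (CPM + 1) in the group named first over (CPM + 1) in the group named second, taken for genes with 100 counts or more in the pair of groups, and 2-fold is the size that counts as apart. Of the 5 genes, 2 were at least 2-fold apart, both lower in Dorsal. Over the 13152 genes measured, 8.30% were lower in Dorsal by 2-fold or more, 10.1% were higher, and 18.4% were apart in either direction. Igf2 had 54.5 CPM in Dorsal against 146 CPM in Ventral, for a log2 fold of -1.40 (ratio 0.374, 0.363 to 0.385). It was lower in Dorsal under each alternative run, with log2 folds of -1.20 to -1.80. Igf2r had 47.6 CPM in Dorsal against 110 CPM in Ventral, for a log2 fold of -1.20, but without Ventral 41 the log2 fold was -0.41. Igf1r was higher in Dorsal with a log2 fold of 0.88, short of 2-fold, and 0.59 without Ventral 41. Igfbp3 had 0.55, which was 0.26 without Ventral 41 and turned to -0.17 with cells weighted equally. Igf1 had a log2 fold of -0.39; it was -1.18 with cells weighted equally, -2.23 in cells with an even i7 index, 0.94 in cells with an odd i7 index, and -1.0 without the macrophage-like cells. The median log2 fold of all measured genes was 0.14, 0.01 without Ventral 41, and -0.02 with cells weighted equally. Igf2 thus kept its direction in cells with odd and with even index, and Igf1 did not.

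Ventral against Mesenchymal sets opposite gates from the same side of the aorta side by side. Again 2 of the 5 genes were at least 2-fold apart, Igf1 and Igf2, both lower in Ventral; 12.9% of 13065 genes were at least 2-fold lower in Ventral, 17.1% were higher, and 30% were apart in either direction. Igf2 stood at 146 CPM in Ventral and 1098 CPM in Mesenchymal, a log2 fold of -2.90 (ratio 0.133, 0.131 to 0.135), with log2 folds of -2.14 to -3.59 under the alternatives. Igf1 stood at 60.6 CPM in Ventral and 332 CPM in Mesenchymal, a log2 fold of -2.44 (ratio 0.182, 0.177 to 0.187). With cells weighted equally its log2 fold was -0.94, short of 2-fold, without the top cell of each group it was -2.06, and without the macrophage-like cells it was -3.07. Igf2r had a log2 fold of -0.54, and -1.33 without Ventral 41; in cells with an even i7 index, which include Ventral 41, it was 0.06. Igf1r and Igfbp3 each had a log2 fold of 0.12, near the median of all measured genes, 0.09. Without Ventral 41 each had 0.41, beside a median of 0.17.

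HSC against Mesenchymal sets the blood stem and progenitor gate beside the mesenchymal gate. Here too 2 of the 5 genes were at least 2-fold apart, Igf1 and Igfbp3, both lower in HSC; 22.6% of 12758 genes were at least 2-fold lower in HSC, 16.6% were higher, and 39.2% were apart in either direction. Igfbp3 had 0 counts in HSC and 41.9 CPM in Mesenchymal, which is at least 1153-fold lower in HSC against a floor of 3 counts over the HSC group. Igf1 stood at 97.4 CPM in HSC and 332 CPM in Mesenchymal, a log2 fold of -1.76 (ratio 0.293, 0.286 to 0.301), and -3.62 without HSC 23. Without the top cell of each group, HSC 23 and Mesenchymal 84, the log2 fold of Igf1 was -2.94. Igf2 differed little, at 949 CPM in HSC and 1098 CPM in Mesenchymal, a log2 fold of -0.21 that was 0.07 with cells weighted equally. Igf2r had a log2 fold of -0.84, and -1.13 without the top cell of each group. Igf1r had -0.14, beside a median of -0.10 over all measured genes. The level of Igf2 thus set HSC apart from Mesenchymal less than that of Igf1 and Igfbp3 did.

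The Ngfr+ cells, Dorsal and Ventral together, fell into 6 clusters when all IGF axis genes with an entry were kept out of the clustering. Cluster 1 (65 cells, 52 of them Dorsal) had all 6 neural crest and glial markers and is called neural crest and glial-like, and cluster 2 (36 cells, 21 Dorsal) had all 6 sympathoadrenal markers with an entry and is called sympathoadrenal-like. Cluster 4 holds the 17 macrophage-like cells. Clusters 3, 5 and 6 stay unnamed and are led by Plin4, Glb1l2 and Rasd1 (34 cells, 23 Ventral), by Sall1, Meox1 and Six2 (15 cells, 14 Ventral), and by Grin2b, Pde1a and Serpina3a (15 cells, 14 Ventral, among them Ventral 41). Of markers with an entry, cluster 6 had all 5 mesenchymal ones, at a summed 836 CPM, and 3 of 6 neural crest and glial ones, at 323 CPM. Cluster 5 had 3 of 4 coelomic and mesonephric markers (Wt1, Pax2 and Pax8), at 362 CPM. Of these, Pax8 was detected in all 6 clusters and Wt1 in cluster 6 as well. Cluster 3 had 5 of 6 neural crest and glial markers and 5 of 6 sympathoadrenal markers. Each IGF gene had its own distribution over the 6 clusters.

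Igf1 stood at 347 CPM (339 to 356) in the macrophage-like cluster and at 49.9 CPM in cluster 3, where Ventral 25 held 52.2% of the counts. Cluster 6 was about as high in Igf1 as cluster 3, at 48.4 CPM with 8 of 15 cells positive, and Ventral 57 held 36% of its counts. In the sympathoadrenal-like cluster it stood at 0.114 CPM, with 0 of 36 cells positive. Igf2 was highest in cluster 5, at 381 CPM (372 to 390) with 15 of 15 cells positive. Ventral 56 held 37.7% of those counts, and the median cell of cluster 5 had 257 CPM. The lowest Igf2 level was in the macrophage-like cluster, at 12.4 CPM. Igf1r was read in 65 of 65 neural crest and glial-like cells, at 167 CPM, and in 36 of 36 sympathoadrenal-like cells, at 192 CPM. In the macrophage-like cluster Igf1r stood at 94.5 CPM, but Dorsal 36 held 49.7% of those counts, and the level was 175 CPM in the Dorsal and 8.15 CPM in the Ventral macrophage-like cells. Igf2r stood at 233 CPM in cluster 6, with 65.6% of the counts in Ventral 41, and at 1.25 CPM in the macrophage-like cluster. Igfbp3 was highest in cluster 3, at 132 CPM with 28 of 34 cells positive, and second in the neural crest and glial-like cluster, at 81.3 CPM with 42 of 65 cells positive. It stood at 9.88 CPM in the sympathoadrenal-like cluster and was positive in 0 of 17 macrophage-like cells and 0 of 15 cells of cluster 5. Cluster 6 had 18.9 CPM of Igfbp3, of which 90.3% lay in Ventral 43. The macrophage-like cluster was thus high in Igf1 and low in Igf2, Igf2r and Igfbp3, and cluster 5 was high in Igf2 and near 0 in Igf1 and Igfbp3.

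**Figure D4:**
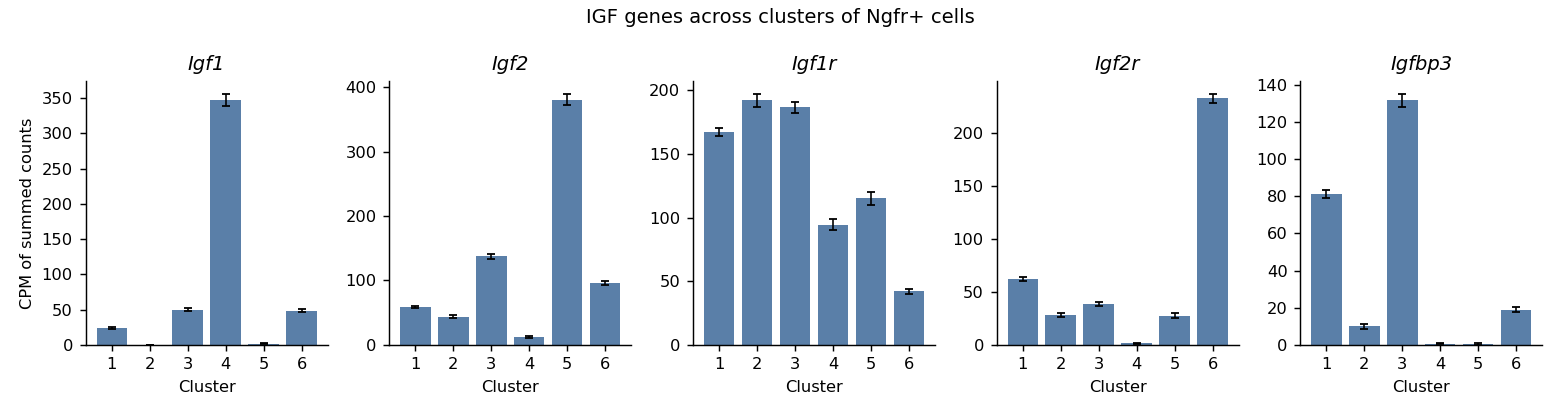
Level of each IGF gene (CPM of summed counts, with exact Poisson 95% limits) in the 6 clusters of Dorsal and Ventral cells, in panels with their own vertical scales. Igf1 is highest in the macrophage-like cluster 4, Igf2 in cluster 5, Igfbp3 in cluster 3, and the tall Igf2r bar of cluster 6 holds 65.6% of its counts in Ventral 41.

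The rest of the IGF axis was described from a list of 50 genes, of which 41 have an entry and 40 were measured in each comparison. Dorsal against Ventral, 3 were higher in Dorsal by 2-fold or more and 3 were lower, beside the 10.1% higher and 8.30% lower of all measured genes, so neither share stood far from the background. Their median log2 fold was 0.24, against 0.14 over all genes. Igfbp5, a binding protein gene, had 323 CPM in Dorsal against 75.2 CPM in Ventral, for a log2 fold of 2.09, and was positive in 71 of 93 Dorsal cells and 40 of 89 Ventral cells. Igfbpl1, an IGF-binding protein-like gene, had 6.65 CPM in Dorsal against 0.998 CPM in Ventral, for a log2 fold of 1.94. Zfp57, a zinc finger protein that maintains imprints, had a log2 fold of 1.04, and 0.97 without the top cell of each group. The genes that were lower rested on few cells. Igfbp7 had a log2 fold of -5.28, with 98.2% of the Ventral counts in Ventral 41, and -0.10 without that cell. Plagl1, an imprinted zinc finger gene, had -1.77, and -0.38 without the top cells. Grb14, an adaptor of insulin receptor signalling, had -2.56, and -1.07 without the top cells, of which Ventral 8 held 74.1% of the Ventral counts.

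Ventral against Mesenchymal, 7 of 40 were higher in Ventral by 2-fold or more and 5 were lower, beside the 17.1% higher and 12.9% lower of all measured genes, so both shares were near the background. Their median log2 fold was 0.07, against 0.09 over all genes. Pappa, a protease that cleaves IGF-binding proteins, stood at 0.611 CPM in Ventral and 21.8 CPM in Mesenchymal, a log2 fold of -3.82. Igfbp5 had a log2 fold of -1.47, Htra1, a secreted serine protease, -1.30 and Zfp57 -1.23. Among the higher genes, Stc1, which encodes an inhibitor of the Pappa protease, stood at 4.67 CPM in Ventral and 0.433 CPM in Mesenchymal, a log2 fold of 1.98. Igfbp7 had 3.39, but -1.40 without the top cell of each group, and Grb14 had 2.54, and 1.16 without them.

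HSC against Mesenchymal, 6 of 40 were higher in HSC by 2-fold or more and 13 were lower, beside the 16.6% higher and 22.6% lower of all measured genes. Their median log2 fold was -0.19, against -0.10 over all genes. The binding protein genes Igfbp2, Igfbp5 and Igfbp7 were low in HSC, as Igfbp3 was. Igfbp5 stood at 0.620 CPM in HSC and 210 CPM in Mesenchymal, a log2 fold of -7.03, and was positive in 2 of 65 HSC cells and 45 of 88 Mesenchymal cells. Igfbp2 had 2.66 CPM in HSC and 35.5 CPM in Mesenchymal, a log2 fold of -3.32, or -2.63 once the top cell of each group was left out. Igfbp7 had 0.0538 CPM in HSC and 16.3 CPM in Mesenchymal, a ratio of 0.00330 (0.000809 to 0.00764). Pappa, with about 1 count in HSC, had 0.0110 CPM in HSC and 21.8 CPM in Mesenchymal, a ratio of 0.000505 (1.41e-05 to 0.00311). Igfbp4 was the exception among the binding proteins, at 560 CPM in HSC, 410 CPM in Dorsal, 324 CPM in Ventral and 490 CPM in Mesenchymal. Pik3cb, a catalytic subunit of PI3K, stood at 50.6 CPM in HSC and 0.721 CPM in Mesenchymal, a log2 fold of 4.91, and the adaptor gene Grb2 had 62.8 CPM in HSC and 19.1 CPM in Mesenchymal, a log2 fold of 1.67. Plag1, a zinc finger factor known in human cells to bind an IGF2 promoter, had 1.5. Stc2, a relative of Stc1, had 1.44, and 0.63 without the top cells. Beyond the rule for named genes, and chosen after its values were seen, Grb10 stood at 100 CPM in HSC, 666 CPM in Dorsal, 599 CPM in Ventral and 439 CPM in Mesenchymal; it is an imprinted adaptor that binds IGF1R. The receptor gene Insr, also named after its values were seen, had 51.2 CPM in HSC, 34.1 CPM in Dorsal, 43.1 CPM in Ventral and 59.9 CPM in Mesenchymal.

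**Figure D5:**
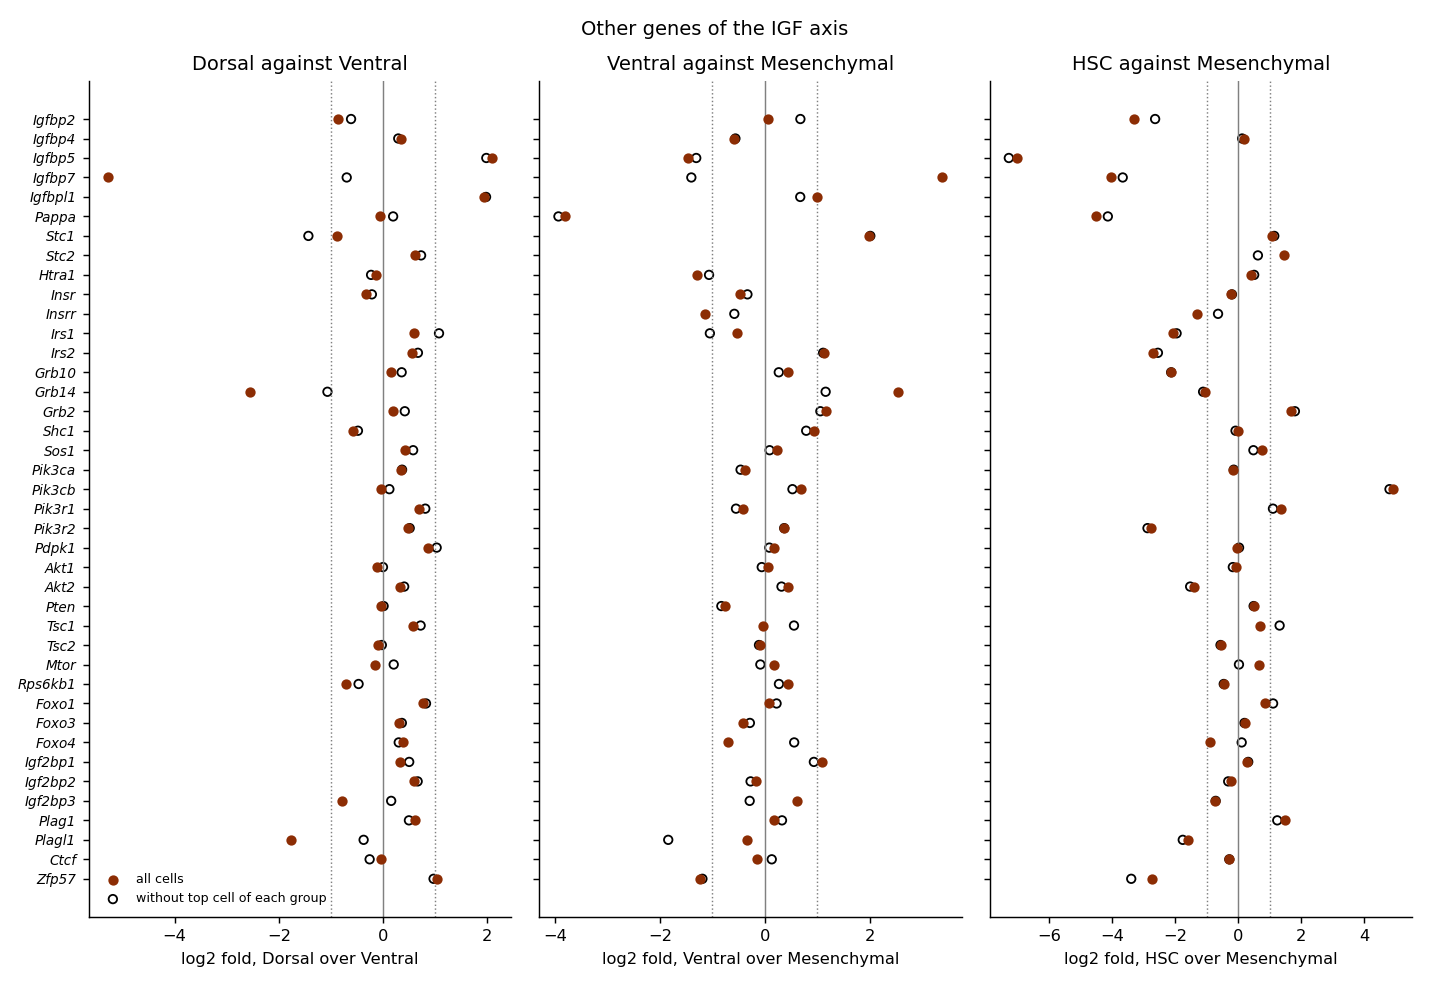
Log2 fold of other measured genes of the IGF axis in Dorsal against Ventral, Ventral against Mesenchymal and HSC against Mesenchymal; filled points use all cells and open points leave out, for each gene, the cell with the most counts in each group. Dotted lines mark 2-fold; the filled and open points of Igfbp7 lie far apart in the comparisons with Ventral, where Ventral 41 held 98.2% of the counts.

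Genes with the most similar pattern were ranked by Pearson correlation of log2(CPM/10 + 1) over the cells of all groups, which share differences in depth and sort, among 10658 genes. For Igf2 these were Fn1 (0.64), Meis1 (0.60), Hmga2 (0.59) and Eva1b (0.57). For Igfbp3 they were Ehd3 (0.53), Cdkn1c (0.52), Cthrc1 (0.51), Sox8 (0.50) and Serpine2 (0.50). Values were lower for Igf2r, led by Fstl1 (0.44), Col3a1 (0.41), Sparc (0.40), Tpm1 (0.40) and Itm2a (0.39), and for Igf1, led by Tmem88 (0.41), Rgs10 (0.40), Tnc (0.38), Hfe (0.37) and Fcgrt (0.36). Igf1r had the lowest, with Nell2 (0.37), Spon1 (0.37), Dpysl3 (0.37), Phldb1 (0.35) and Fam210b (0.35). Weak values of this kind in sparse counts describe these cells only.

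Within the group with the highest level of each gene, the lists were mostly different. Over 88 Mesenchymal cells, Igf1 was closest to Ddc (0.56), Tnc (0.52), Ednrb (0.50), Isl1 (0.43) and Thbd (0.43). Over the same cells, Igf2 was closest to Tmsb10 (0.73), Myl6 (0.68), Fstl1 (0.61), Tmsb4x (0.55) and Nme2 (0.53). Igf2r, also over Mesenchymal cells, was closest to Nomo1 (0.42), Dusp16 (0.41), Gpc6 (0.41), an entry listed as a.1 (0.35) and Cap2 (0.35). Over 93 Dorsal cells, Igf1r was closest to Phldb1 (0.45), Rnf165 (0.43), Prkcq (0.39), Anapc1 (0.38) and Nell2 (0.37). Igfbp3, over the same Dorsal cells, was closest to Ccnd1 (0.56), Ehd3 (0.56), Fbln1 (0.53), Kank4 (0.51) and Tgfb2 (0.51). Tnc for Igf1, Phldb1 and Nell2 for Igf1r, and Ehd3 for Igfbp3 stood on both lists of their gene.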

How the data were processed

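Cells were sorted singly into plates, and each cell is 1 sample; the labels put them in 4 groups, each 1 pool. The deposited table holds estimated counts per gene that the authors made with kallisto 0.43.1 on GRCm38, per the submitters' processing notes, without scaling for depth. A second deposited table, on a log2 scale, holds the authors' estimated counts divided by a size factor per cell, plus 1, as the values show; it was used for 1 alternative. Annotation, filters and how transcripts were summed are not given in the sources used here. Of 14109 entries, 661 carry no symbol (2.96% of counts) and were left out.

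Counts were summed per group and scaled to CPM, with limits for counting error only; the labels name no animal, so a cell was not taken as a replicate and no test was made. Summed counts weight deep cells more. Full-length reads carry no molecular identifiers. A floor of 3 counts, a pseudocount of 1 CPM and a minimum of 100 counts over both groups were used for folds. The depth for thinning, 310000 counts, is near the 10th percentile of cell totals; it left out 1 cell of HSC, 1 of Dorsal, 9 of Ventral and 19 of Mesenchymal. Clusters of Ngfr+ cells (6, by Ward linkage on 20 components) used log2(CPM/10 + 1) of 2000 highly variable genes, without 46 IGF axis entries. No doublet caller was run on singly sorted cells. Exon lengths and coordinates come from GENCODE M21 on GRCm38.

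The members and lists were chosen with earlier results of these data known. Named by rule were all 5 members, per comparison up to 4 other axis genes in each direction with the largest fold past 2-fold, and the 5 genes most like each member over all cells and over its highest group, among genes with at least 5 counts in 10% of the cells. A few genes that these rules name are not reported here. Listed but not analysed here, having no entry, were Igfbp1, Igfbp6, Igfals, Pappa2, Irs4, H19, Igf2os, Ins2 and Airn. Alternatives varied cell weights, deep cells, odd and even indices, scaling, pseudocount, filter, thinning, gene length and clustering. Python 3.11.15 was used with numpy 2.4.6, pandas 2.3.3, scipy 1.17.1 and matplotlib 3.10.9. The fold step was tested on simulated Poisson counts with known folds, which held no spread between cells. Thinning, clustering, correlations and the order per kilobase were not tested in this way.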

Additional observations from a re-analysis of the deposited data

How the results depend on the processing

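Of the alternatives to the main results, 85 left the value within 1.5 times and 15 moved it. Of the alternatives to the other results, 99 left the value in place and 321 moved it, so most of those values depend on the processing. The number of the 5 genes with their highest level in the same group was 3 without the 5% deepest cells, with cells weighted equally and with the deposited log2 table; in each of these Igf2 was highest in HSC and Igfbp3 in Ventral. For Dorsal against Ventral, the 2 IGF genes past 2-fold became 1 without Ventral 41, without it and the Ventral cells that share its index, in odd-index cells and, an alternative chosen after seeing the data, without the top cell of each gene; they became 4 in even-index cells. The 6 other axis genes became 13 in even-index cells. For Ventral against Mesenchymal, the 2 IGF genes became 4 in odd-index cells, and the 12 other axis genes became 6 with the log2 table and 5 with a pseudocount of 10. For HSC against Mesenchymal, the 19 other axis genes became 12 with a pseudocount of 10. The per-kilobase order held in 2 of 4 groups with the longest transcript, and 2 of the 5 genes kept their highest cluster with 4 clusters. The causes were not tested, except that a larger pseudocount lowers folds of low genes by construction. Leaving out the macrophage-like cells was also chosen after seeing the data. Weighting cells equally moved the median log2 fold of all genes by -0.16 (Dorsal against Ventral) and by 0.13 between Ventral and Mesenchymal.

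No paired analysis was possible because the results come from no test, each group is 1 pool, and cells were numbered in accession order. Depth limits low cells: 1 count in the shallowest cell equals 7.88 CPM, and the limits say nothing of the spread between embryos.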

Other observations

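Wells that shared an index with the cell holding the most counts of a gene were set beside the other wells of the same pool. For Igf1 in HSC, 3 of 10 wells sharing an index with HSC 23 had at least 5 counts, against 19 of 54 others. For Igf1 in Mesenchymal, 11 of 16 wells sharing an index with Mesenchymal 84 had at least 5 counts, against 29 of 71 others. For Igf2r in Ventral, 15 of 17 wells sharing an index with Ventral 41 had at least 5 counts, against 41 of 71 others. Whether reads carried over between wells contributed to these values was not tested.

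In Ventral, log Igf1 and log Igf1r had a Pearson correlation of -0.36 over 89 cells, and log Igf1r had -0.48 with the summed macrophage markers. In Mesenchymal, log Igf1 had 0.42 with the summed sympathoadrenal markers over 88 cells, and log Igf2 had -0.44 with the coelomic and mesonephric markers. These values describe cells of 1 pool each.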
